A study of Mus musculus with 9 samples.

Results

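LSK cells, the lineage-negative, Sca1-positive and Kit-positive fraction of the bone marrow that holds stem cells and multipotent progenitors, were compared between NHD13/MSI2 and NHD13 in their metabolic, signalling, surface and transcription factor genes. The 4 NHD13/MSI2 and 2 NHD13 libraries were chosen by their labels, 6 of the 9 libraries of the series, and 55 gene lists were drawn up for these 4 classes, leaving out stem cell and cell cycle lists. NHD13 is a fusion of the nucleoporin NUP98 with the homeobox factor HOXD13, driven here by the Vav promoter of blood cells, and it gives mice a myelodysplastic disease. NHD13/MSI2 mice carry in addition KH2-Col1A1-tet-on-MSI2/ROSA26-rTTA, a construct that makes the RNA-binding protein MSI2 when doxycycline is fed. Marrow on the C57BL/6 background was transplanted with helper cells into lethally irradiated CD45.1 recipients. Per the study doxycycline was given for 3 months before the RNA was taken, which was 4 months after transplantation. The study also reports that NHD13 marrow engrafts poorly and that blood chimerism was higher in NHD13/MSI2 than in NHD13 mice. The part of recipient and helper cells in each library was not tested. The labels give an age of 4 months and the strain C57BL/6 for all 9 samples, and the third group, C57BL/6 control marrow with 3 libraries, enters here only through the estimate of each gene's spread and as a reference level. Only the library names of the NHD13/MSI2 samples carry a word for doxycycline, while the design text names no group for the feeding, so that it is not stated whether NHD13 mice also received the drug. Both NHD13 library names share one number and all NHD13/MSI2 names share another, whose meaning is not given, and what the numbers mark cannot be told apart from the group. The library name of NHD13 replicate 2 does not carry NHD13. Its Hoxd13 count was 15, beside 17 in replicate 1 and 0 in all controls.

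As background, MSI2 binds messenger RNAs and alters their translation and stability, and it is known for keeping blood stem cells and leukaemia cells in an undifferentiated state. LSK cells receive signals through cytokine receptors such as KIT, through receptor tyrosine kinases such as TIE2, and through G-protein coupled receptors that steer them in the marrow. As they turn towards the myeloid lineages, cells are known to raise the receptors for CSF1 and CSF3, the integrin CD11b and lysosomal enzymes.

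Libraries held 19242153 to 23013493 counts on named genes, and levels are given as CPM, the count of a gene scaled by the size of its library after TMM normalisation. In NHD13/MSI2, replicates 1 to 3 correlated with each other at r = 0.970 to 0.973 in log2 CPM across genes and with replicate 4 at 0.944 to 0.949, and both NHD13 libraries correlated at 0.937. NHD13/MSI2 replicate 4 thus stood apart from the others of its group, and NHD13 replicate 1 carried more of many genes than replicate 2. All 6 carried Y-linked Uty at 129 to 144 CPM in NHD13 and 102 to 130.1 CPM in NHD13/MSI2, whereas of the 3 controls replicates 1 and 3 had at most 1.31 CPM of it and, unlike the other 7 libraries, at least 866 CPM of Xist. Counts of the mouse gene Msi2 did not follow the label, and whether reads from the MSI2 construct were counted under it is not known. Msi2 lay at 139 and 111 CPM in NHD13 and at 88.0, 77.1, 82.8 and 241 CPM in the libraries labelled NHD13/MSI2, with a log2 fold change of −0.03 ± 0.44 (SE) and an adjusted p of 0.983. Every direction below therefore rests on the label. Of 6 LSK markers none was at 0 in any library, and 1, Slamf1, was called lower, at 51.8 and 13.4 CPM in NHD13 against 0.155, 0.0499, 1.86 and 0.130 CPM in NHD13/MSI2. Kit was at 1932 and 1121 CPM in NHD13 and at 914, 908, 1341 and 1402 CPM in NHD13/MSI2, and Ly6a, which encodes Sca1, was at 69.0 and 48.3 CPM and at 375, 254, 312 and 98.6 CPM (adjusted p = 0.0221).

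The comparison asks how libraries labelled NHD13/MSI2 differ from NHD13 libraries. Over 13355 genes tested by edgeR's quasi-likelihood method with all 9 libraries in the model, 423 (3.17%) passed an adjusted p of 0.01, of which 78 (0.584%) were higher and 345 (2.58%) lower in NHD13/MSI2. The word called is used below for these genes. The median log2 fold change of all tested genes was −0.03, with 6311 of them above 0. Of all tested genes 29.9% had NHD13/MSI2 libraries that did not overlap the NHD13 libraries, and all 423 called genes were among them. The NHD13/MSI2 libraries also lay above the range of the controls for 67 of the 78 higher genes and below it for 310 of the 345 lower ones. The same share over all tested genes was not counted, so these counts are not read as a trait of the called genes. In 85 of the lower genes no NHD13/MSI2 library had more than 3 counts. With the control libraries left out of the fit, 28 of the 423 genes remained under 0.01 and 343 under 0.05. Without NHD13/MSI2 replicate 4, 394 remained under 0.01, and without NHD13 replicate 1, 102 under 0.01 and 321 under 0.05, all in the same direction. Fitted folds depended on the NHD13 libraries and moved by more than 1.5 times for 204 of the 423 genes without NHD13 replicate 1, for 107 without replicate 2 and for 21 without NHD13/MSI2 replicate 4. In bulk RNA, fewer cells of a type and less RNA per cell cannot be told apart.

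Of 2518 tested genes on the 55 lists 148 were called. The metabolic lists held 766 tested genes with 14 called higher and 31 lower, the signalling lists 689 with 10 and 38, the surface lists 490 with 11 and 28 and the transcription factor lists 602 with 1 and 17. Calls per list, beside the shares of 0.584% and 2.58% over all genes, are plotted next. No member was called in the lists of fructose and glycogen, cholesterol, haem and iron, JAK, STAT and SOCS, TGF-beta and BMP, Notch, chemokines and their receptors, ETS, IRF, or KLF, SP, EGR and GFI genes.

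**Figure D1:**
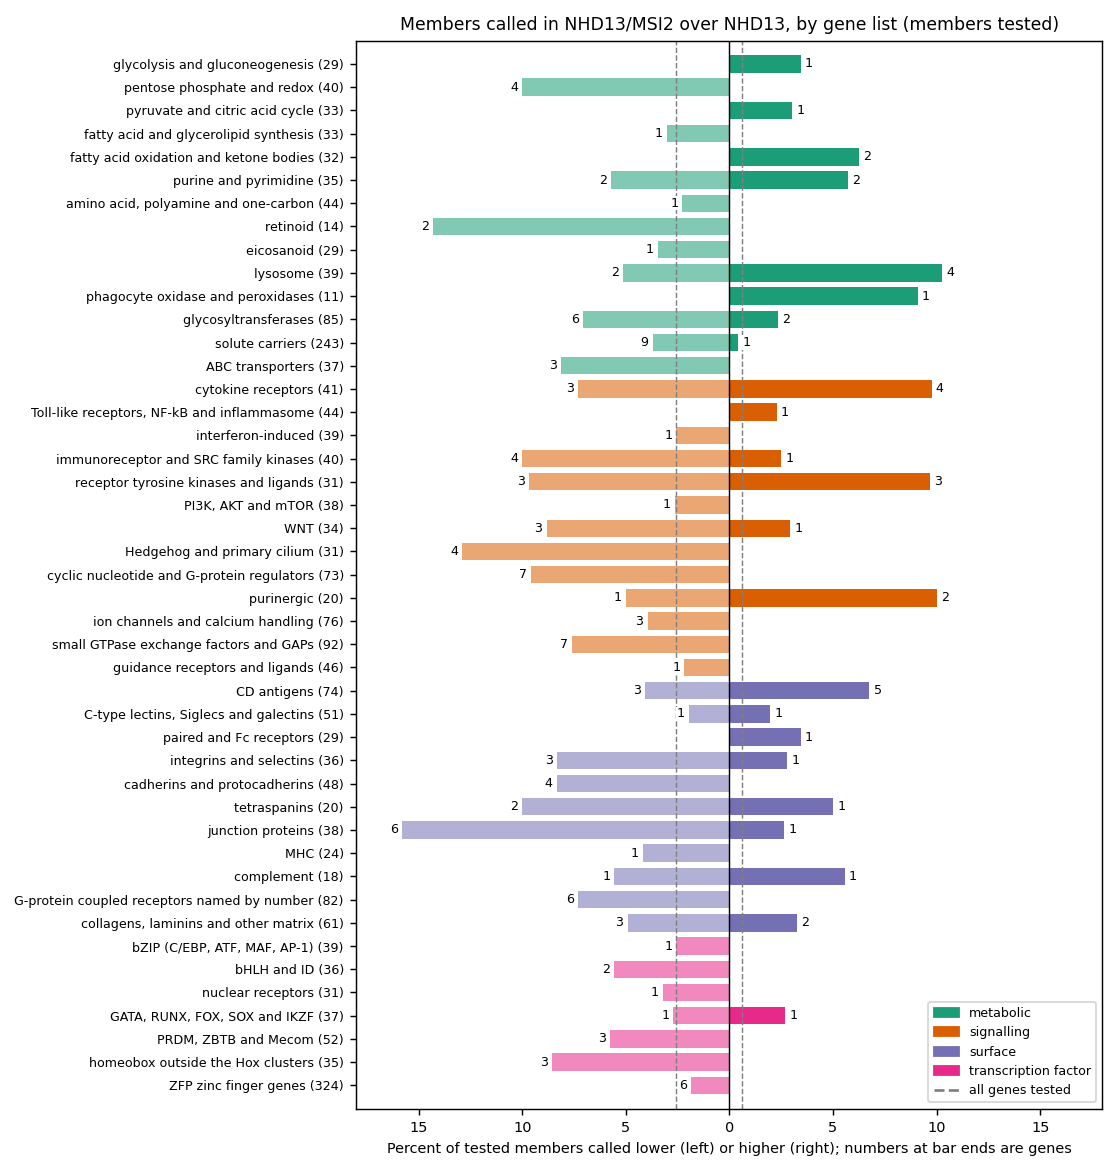
Percent of the tested members of each list that were called lower (left, paler) or higher (right) in NHD13/MSI2 over NHD13, coloured by class, with the number of called genes at each bar's end and of tested members in brackets. Dashed lines mark 2.58% lower and 0.584% higher over all 13355 genes, and the lists without a called member are left out. Junction proteins have the longest bar to the left (6 of 38), and lysosome genes the longest to the right (4 of 39).

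With all libraries in the fit, Fbp1 had the largest fitted increase of any called gene with a mean of at least 50 counts. It encodes fructose-1,6-bisphosphatase, the gluconeogenic enzyme that reverses the step of phosphofructokinase, and lies at chromosome 13, 62864753 to 62888282, minus strand of GRCm38. Its level was 48.0 and 11.6 CPM in NHD13, 38.9, 50.3 and 31.8 CPM in the controls and 698, 957, 774 and 1066 CPM in NHD13/MSI2. All 4 NHD13/MSI2 libraries stood more than 10-fold above every other library. The log2 fold change was 4.87 ± 0.59 (SE), 29.3-fold, with an adjusted p of 0.00208. It was 6.26 without NHD13 replicate 1, where that of Fcer2a was larger at 8.13, and 4.23 without replicate 2. Fbp2, the paralogue of muscle, had at most 2 counts in any of the 6 libraries, and of the 29 tested genes of glycolysis and gluconeogenesis no other was called. The list's median log2 fold change was 0.32, with 17 members above 0.

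The lists of oxidative enzymes gave 3 calls in 65 genes (4.62%, beside 3.17% of all genes), each of them higher. Idh1, the cytosolic NADP-dependent isocitrate dehydrogenase, was at 103 and 77.0 CPM in NHD13 and at 158, 190.5, 177 and 189 CPM in NHD13/MSI2, a rise of 1.99-fold (adjusted p = 0.00710), and it was the only called gene among 33 of the pyruvate and citric acid cycle list. Its mitochondrial counterpart Idh2 was at 236 and 355 CPM and at 414, 404, 362 and 151 CPM (adjusted p = 0.844), where the groups overlapped. Among 32 genes on the list of fatty acid oxidation and ketone bodies, Acox3 and Bdh2 were called higher and none lower. Cpt1c, a carnitine palmitoyltransferase 1 gene outside the list, was called lower. Cpt1c was at 16.6 and 5.73 CPM in NHD13 and 0.103, 0.449, 0.452 and 0.389 CPM in NHD13/MSI2 (adjusted p = 0.00208). Acox3, a peroxisomal acyl-CoA oxidase for branched chains, rose from 74.97 and 93.7 CPM to 217, 215, 264 and 203 CPM (log2 fold change 1.41 ± 0.23, adjusted p = 0.00710). Bdh2, a cytosolic hydroxybutyrate dehydrogenase, had 0 counts in both NHD13 libraries and 1.40, 1.70, 4.93 and 1.23 CPM in NHD13/MSI2, at least 16.2-fold higher when 3 counts per library are taken as the floor. The 3 controls were higher still for Bdh2, at 14.1, 14.8 and 15.1 CPM.

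Genes of extracellular and intracellular purines changed in both directions. Entpd1, which encodes CD39, the surface enzyme that removes phosphates from ATP and ADP, was at 12.5 and 15.8 CPM in NHD13 and 38.1, 36.0, 49.5 and 44.7 CPM in NHD13/MSI2 (log2 fold change 1.57 ± 0.22, adjusted p = 0.00346). P2rx7, the ion channel that opens to high extracellular ATP, was at 12.8 and 12.8 CPM against 58.8, 84.8, 119 and 92.8 CPM (log2 fold change 2.79 ± 0.32, adjusted p = 0.00158). The receptor for ADP, P2ry1, was at 73.6 and 19.2 CPM in NHD13 and at 1.09, 1.99, 2.49 and 0 CPM in NHD13/MSI2, lower by a log2 fold change of −5.02 ± 0.88 (adjusted p = 0.00910). So the channel for ATP and the enzyme that degrades it rose while the ADP receptor fell, in libraries that did not overlap for any of the 3 genes. Pnp2, a purine nucleoside phosphorylase, rose from 2.67 and 1.63 CPM to 34.9, 26.6, 21.4 and 36.7 CPM (13.9-fold, adjusted p = 0.000783), and its near-identical neighbour Pnp went from 94.6 and 84.5 CPM to 177, 155, 142 and 147 CPM, at an adjusted p of 0.0119. How reads were divided between Pnp and Pnp2 depends on the counting, so their separate sizes are uncertain. Impdh1, which commits inosine monophosphate to guanine nucleotides, was at 24.8 and 32.6 CPM and then at 11.6, 12.2, 14.6 and 9.41 CPM (adjusted p = 0.00886).

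Lysosomal genes gave the most higher calls of the metabolic lists, 4 of 39 tested beside 0.584% of all genes. Of the 39, 31 had a log2 fold change above 0, the median was 0.33, and Ctsz, Man2b1, Ctsh and Hpse were called higher against Ctsf and Smpd1 lower. Ctsh and Ctsz encode lysosomal cathepsins. Ctsh was at 46.7 and 51.7 CPM in NHD13 and 129.9, 169, 178 and 116 CPM in NHD13/MSI2 (log2 fold change 1.59 ± 0.23, adjusted p = 0.00402), and Ctsz at 192 and 264 CPM and 460.1, 520.0, 467 and 545 CPM (log2 fold change 1.13 ± 0.18, adjusted p = 0.00623). For both cathepsins the controls were lower than either group, at 10.5 to 14.9 and 83.2 to 93.0 CPM. Man2b1, the lysosomal alpha-mannosidase, went from 214 and 247 CPM to 559, 688, 716 and 705 CPM (2.89-fold, adjusted p = 0.00425), and heparanase, Hpse, from 40.6 and 19.96 CPM to 122, 143, 165 and 90.5 CPM (4.29-fold, adjusted p = 0.00692). In the opposite direction, Smpd1, the acid sphingomyelinase, was at 49.4 and 27.1 CPM and at 14.4, 15.8, 12.6 and 9.93 CPM (log2 fold change −1.54 ± 0.26, adjusted p = 0.00755). Arsg, a lysosomal sulfatase gene outside the list, was also called lower, at 5.66 and 13.3 against 1.03, 2.14, 1.90 and 1.30 CPM (adjusted p = 0.00904). The phagocyte oxidase list of 11 genes had 1 call, Prkcd, which encodes a protein kinase C that phosphorylates an oxidase subunit. Prkcd was at 108 and 90.9 CPM in NHD13 and 339, 310.3, 247 and 287 CPM in NHD13/MSI2 (log2 fold change 1.57 ± 0.17, adjusted p = 0.00132), while the oxidase subunit gene Ncf1 was at 81.1 and 68.2 against 204, 188, 194 and 118 CPM (adjusted p = 0.0383) and Cybb at 122 and 5.19 against 18.2, 20.2, 16.6 and 13.6 CPM (adjusted p = 0.204). All 10 markers of monocytes and macrophages were tested and Csf1r was the 1 called. Their summed level was 285 to 889 CPM in NHD13 and 869 to 1425 CPM in NHD13/MSI2, and without Csf1r 189.7 to 767 CPM against 588 to 1066 CPM, both of which overlapped. Their part in the lysosomal result was not tested.

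Genes of retinoids and of redox metabolism were called lower in 2 of 14 and 4 of 40 cases, and those of eicosanoids in 1 of 29 (3.45%, near the 2.58% of all genes). Aldh1a1, which oxidises retinal to retinoic acid, was at 56.6 and 10.1 CPM in NHD13 and at 0.931, 0.648, 0.0905 and 0.260 CPM in NHD13/MSI2 (log2 fold change −6.09 ± 0.86, adjusted p = 0.00379). NHD13 replicate 1 was the higher NHD13 library, and of 14 tested retinoid genes 2 were called, both lower. Ptgs1, the constitutive cyclooxygenase, was at 158 and 45.0 CPM against 5.53, 12.4, 7.78 and 6.23 CPM (log2 fold change −3.67 ± 0.46, adjusted p = 0.00231). It was the only eicosanoid gene called of 29, although the median of that list was −0.94 and 8 members lay above 0, and Tbxas1, the thromboxane synthase that acts after it, was at 71.8 and 23.1 against 67.3, 51.7, 67.1 and 80.1 CPM (adjusted p = 0.575). Among 40 pentose phosphate and redox genes, 4 were called lower, and they were peroxidases and glutathione transferases. Gpx8 had 11.3 and 1.73 CPM in NHD13 and a single count in 1 of the 4 NHD13/MSI2 libraries, a ratio of 501 (95% counting interval 90.0 to 19808). Gstt1 was at 6.16 and 1.19 CPM and at 0, 0.0499, 0.0905 and 0.260 CPM (adjusted p = 0.00697), Gstm5 at 56.9 and 48.9 against 11.5, 15.7, 9.77 and 12.4 CPM (adjusted p = 0.000783), and Prdx4 at 103 and 72.0 against 38.5, 41.9, 44.4 and 36.0 CPM (adjusted p = 0.00566). Gstm5 overlaps 4933431E20Rik, which was also called lower, and reads of the pair cannot be told apart unless strand was used in counting.

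Of 365 transporters and glycan enzymes 21 were called (5.75%), 85.7% of them lower beside 81.6% of all calls. All 3 called ABC transporters of 37 tested fell. Abcg2, the efflux pump behind the dye-excluding side population, was at 80.1 and 17.5 CPM in NHD13, 138, 118 and 135 CPM in the controls and 0.103, 0.698, 1.27 and 0.0649 CPM in NHD13/MSI2 (log2 fold change −6.42 ± 0.77, adjusted p = 0.00200). Abca4 lay at 44.2 and 11.02 against 2.28, 0.598, 0.769 and 0.0649 CPM (adjusted p = 0.00847). Abcg3 was at 36.7 and 5.93 against 0.672, 2.44, 1.72 and 1.49 CPM (adjusted p = 0.00972). Of 243 solute carriers 9 were called lower (3.70%, near the 2.58% of all genes) and 1 higher. The neutral amino acid transporter Slc6a15 was at 74.9 and 16.4 against 0.931, 0.0499, 1.13 and 1.56 CPM, and the bicarbonate transporter Slc4a8, the 1 that rose, at 30.4 and 36.0 against 87.0, 116, 95.1 and 65.8 CPM (adjusted p = 0.00321 and 0.00658). Of 85 glycosyltransferases and sulfotransferases 6 were called lower and 2 higher. The higher ones were St8sia4, which builds polysialic acid, from 177 and 168 to 588, 591, 597 and 422 CPM (adjusted p = 0.00356), and B3gnt5, which starts lacto-series glycolipids, from 35.0 and 47.1 to 135, 121, 134 and 202 CPM (adjusted p = 0.00372). Of the lower ones, 3 had 0 counts in all 4 NHD13/MSI2 libraries. In NHD13, Chst10 was at 9.24 and 1.14 CPM, B3galt1 at 2.94 and 0.988 CPM and Hs6st2 at 1.47 and 2.12 CPM. Against the floor of 3 counts per library they were at least 32.7-fold (Chst10), 12.4-fold (B3galt1) and 11.3-fold (Hs6st2) lower by the NHD13 mean. For Chst10 most of that mean came from NHD13 replicate 1.

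**Figure D2:**
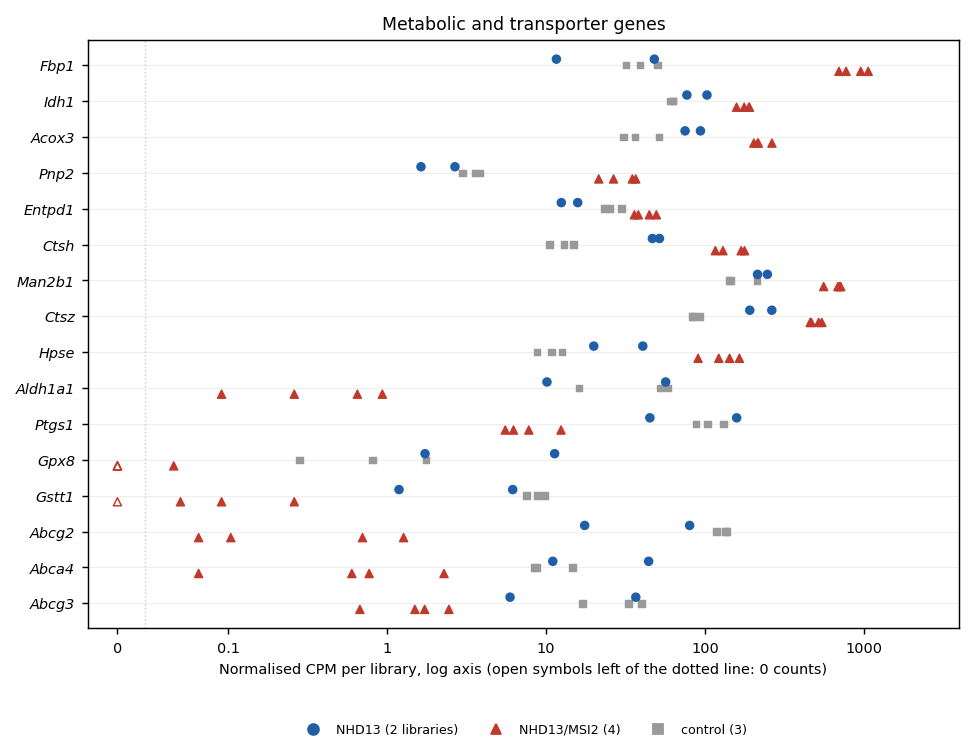
Normalised CPM of metabolic and transporter genes in each library on a log axis, with 2 NHD13 circles, 4 NHD13/MSI2 triangles and 3 control squares, and open symbols at the left for 0 counts. The NHD13/MSI2 triangles lie to the right of both circles from Fbp1 to Hpse and to the left from Aldh1a1 to Abcg3, and the control squares of Fbp1 lie beside the circles.

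Cytokine receptors changed in both directions, and among those that rose were receptors known from myeloid cells. Of 41 tested, Csf1r, Il4ra, Csf3r and Ifngr2 were called higher and 3 lower, among them Il18r1 and Il11ra1. Csf1r, the receptor for the macrophage growth factor CSF1, was at 122 and 94.9 CPM in NHD13, at 9.02 to 15.5 CPM in the controls and at 309, 359, 473 and 281 CPM in NHD13/MSI2 (log2 fold change 1.71 ± 0.30, adjusted p = 0.00927). Csf3r, the receptor for G-CSF, had 97.2 and 110.0 CPM against 236, 246, 282 and 349 CPM (log2 fold change 1.43 ± 0.19, adjusted p = 0.00336), and there the controls, at 185 to 198 CPM, lay between the groups. The interleukin-4 receptor Il4ra went from 66.6 and 64.8 CPM to 206, 194, 243 and 200.02 CPM (log2 fold change 1.68 ± 0.18, adjusted p = 0.00132). Ifngr2 and Ifngr1 together form the interferon-gamma receptor. Ifngr2 went from 41.2 and 35.2 CPM to 80.1, 88.4, 76.6 and 103 CPM (adjusted p = 0.00655), whereas Ifngr1 was at 418 and 445 CPM and 401, 380.0, 345 and 330.3 CPM (adjusted p = 0.423).

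Receptors for interleukins 18 and 11 were among those that fell. Il18r1 was at 114 and 85.7 against 17.4, 13.1, 31.3 and 26.0 CPM (adjusted p = 0.00413), and Il11ra1 at 42.6 and 32.9 against 7.24, 9.52, 15.7 and 9.22 CPM (adjusted p = 0.00691). All 6 megakaryocyte markers were tested, none was at 0 in any library and Itga2b was the 1 called. Their summed level was 89.8 to 718 CPM in NHD13 and 21.7 to 47.4 CPM in NHD13/MSI2, and without Itga2b 40.2 to 507 CPM against 17.2 to 29.0 CPM. Their part in the falls of P2ry1, Ptgs1 and Itga2b was not tested. No gene among 31 of the JAK, STAT and SOCS list was called, with a median of 0.23 and 22 members above 0.

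The list of receptor tyrosine kinases and their ligands split evenly, 3 higher and 3 lower of 31 tested genes (19.35%, beside 3.17% of all genes). Ephb6, an Eph receptor placed on the guidance list instead, was also called lower. Ephb6 was at 3.77 and 0.889 CPM in NHD13 and 0 counts in NHD13/MSI2 (adjusted p = 0.00650). Erbb3, a neuregulin receptor with little kinase activity of its own, was at 2.67 and 0.790 CPM in NHD13 and 36.4, 39.3, 41.9 and 24.4 CPM in NHD13/MSI2 (log2 fold change 4.35 ± 0.52, adjusted p = 0.00189). Ptk7, a pseudokinase receptor of the planar polarity branch of WNT signalling, went from 4.09 and 6.17 to 16.96, 20.4, 20.9 and 16.1 CPM (log2 fold change 1.86 ± 0.30, adjusted p = 0.00644). The angiopoietin receptor Tek, also called TIE2, was at 54.1 and 21.7 CPM in NHD13 and at 0.155, 0.0499, 0 and 1.49 CPM in NHD13/MSI2 (log2 fold change −6.63 ± 1.05, adjusted p = 0.00616), and its partner Tie1 at 74.7 and 21.5 against 4.24, 4.24, 6.52 and 0.974 CPM (log2 fold change −3.57 ± 0.63, adjusted p = 0.00923). Angpt1, the ligand of Tek, was at 454 and 148 CPM and 338, 266, 325 and 347 CPM, where the groups overlapped (adjusted p = 0.930). Of 6 endothelial markers 5 were tested and Emcn and Tie1 were called lower. Their summed level, 373 to 407 CPM in NHD13 and 444 to 566 CPM in NHD13/MSI2, was mostly Pecam1, and without it the sum was 33.0 to 106 CPM against 1.95 to 7.51 CPM. Their part in the falls of Tek and Tie1 was not tested. The platelet-derived growth factor receptor Pdgfrb was at 30.7 and 60.6 CPM and 4.19, 4.74, 7.24 and 1.30 CPM (log2 fold change −3.37 ± 0.52, adjusted p = 0.00547). Pdgfrb is 1 of 6 stromal markers, of which 5 were tested and no other was called, and without Pdgfrb their summed level was 6.37 to 13.6 CPM in NHD13 and 0.195 to 29.5 CPM in NHD13/MSI2, which overlapped. Grb10, an adaptor that restrains insulin receptor signalling, was the only call among 38 genes of PI3K, AKT and mTOR, at 92.5 and 15.4 against 0.0517, 0.449, 1.13 and 0.130 CPM (log2 fold change −6.84 ± 0.84, adjusted p = 0.00224).

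Of the adaptors and kinases below immunoreceptors, 4 were called lower. Lat and Lcp2, which encodes SLP-76, are the scaffold pair that links receptor kinases to phospholipase C gamma. Lat was at 107 and 127 CPM in NHD13 and 21.4, 21.1, 32.1 and 26.1 CPM in NHD13/MSI2 (log2 fold change −2.22 ± 0.20, adjusted p = 0.000698). Lcp2 was at 219 and 57.9 CPM and 16.8, 21.1, 18.8 and 14.6 CPM (log2 fold change −2.96 ± 0.39, adjusted p = 0.00305). The kinase Lck was at 193 and 192 against 71.0, 48.4, 83.8 and 81.1 CPM (adjusted p = 0.00426), and for this gene the controls, at 36.1 to 44.1 CPM, were lower than either group. The kinase Prkce was at 20.7 and 8.002 against 1.60, 3.39, 2.53 and 1.62 CPM (adjusted p = 0.00719). Phospholipase genes and Syk were not called: Plcg1 was at 13.8 and 4.99 against 8.22, 11.97, 9.59 and 19.99 CPM, Plcg2 at 117 and 137 against 207, 218, 225 and 157 CPM, and Syk at 122 and 163 against 156, 147, 173 and 193 CPM (adjusted p = 0.675, 0.0486 and 0.560). Of the 40 genes on this list Prkcd was the only one called higher. Of 9 markers of T and NK cells 6 were tested, with Cd5 and Cd6 called higher and Lck lower, and Cd3e, Cd3g, Cd8a and Ncr1 were at 0 in 4 or 5 of the 6 libraries, and their summed level was 224 to 225 CPM in NHD13 and 149 to 241 CPM in NHD13/MSI2.

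The innate sensing lists gave 1 call each. Tlr12, a receptor of the Toll-like family, was at 2.67 and 3.16 CPM in NHD13 and 14.4, 14.3, 25.2 and 15.4 CPM in NHD13/MSI2 (log2 fold change 2.57 ± 0.40, adjusted p = 0.00586). Of 39 genes on the interferon-induced list 26 lay above 0, with a median of 0.32, and the 1 called member went the other way. Ifitm1, a membrane protein that restricts virus entry, was at 74.7 and 75.7 CPM in NHD13 and 13.7, 12.9, 14.8 and 10.6 CPM in NHD13/MSI2 (log2 fold change −2.53 ± 0.17, adjusted p = 0.000261). Ifi203, an interferon-activated gene by its name but outside the list, was also called lower (log2 fold change −2.30, adjusted p = 0.00305). Its neighbour Mndal, likewise outside the list, was called lower too (log2 fold change −2.04, adjusted p = 0.00757). Both genes overlap on the same strand, so how reads were divided between them is not known.

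Of 73 genes on the cyclic nucleotide and G-protein list, 7 were called lower (9.59%) and none was called higher. The G-protein beta subunit Gnb4 was at 79.4 and 156 CPM in NHD13 and 0.362, 1.05, 2.31 and 0 CPM in NHD13/MSI2 (log2 fold change −6.90 ± 0.76, adjusted p = 0.00132), and the gamma subunit Gng11 at 38.8 and 9.19 against 0.724, 0.598, 0.814 and 0.195 CPM (log2 fold change −5.32 ± 0.58, adjusted p = 0.00132). The phosphodiesterase Pde10a was at 29.8 and 2.42 CPM, 1.27, 0.569 and 0.400 CPM in the controls and 0.310, 0.549, 0.226 and 0.0649 CPM (adjusted p = 0.00738). The other 4 were Rgs7bp, Rgs1, Adcy6 and Rapgef4. The nitric oxide receptor was looked at after the values of its genes had been seen. Soluble guanylate cyclase, which makes cyclic GMP when nitric oxide binds, has an alpha and a beta subunit, Gucy1a3 and Gucy1b3. Gucy1a3 was at 84.5 and 17.4 CPM in NHD13 and 1.40, 0.947, 0.498 and 4.67 CPM in NHD13/MSI2 (log2 fold change −4.80 ± 0.78, adjusted p = 0.00656). Gucy1b3 had 20.6 and 5.63 CPM in NHD13 and a single count in 1 NHD13/MSI2 library, a ratio of 1009 (95% counting interval 181 to 39843) (adjusted p = 0.000698). Prkg1, the kinase that cyclic GMP activates, was at 34.8 and 11.6 against 0.724, 0, 0.362 and 1.56 CPM (adjusted p = 0.00655), and Pde5a, which degrades cyclic GMP, at 18.03 and 7.51 against 1.24, 0.150, 1.09 and 0.0649 CPM (adjusted p = 0.0129). Enzyme, kinase and phosphodiesterase were therefore low in all 4 NHD13/MSI2 libraries and present in both NHD13 and all 3 control libraries, with the phosphodiesterase short of the threshold. Similarly singled out after its values were seen, Prkaa2, a catalytic subunit of the energy sensor AMPK, had 4.37 and 1.53 CPM in NHD13 and 0 counts in NHD13/MSI2, at least 18.6-fold lower (adjusted p = 0.00623), while the other catalytic subunit, Prkaa1, was at 96.9 and 60.5 against 63.7, 64.9, 76.6 and 73.1 CPM (adjusted p = 0.665).

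The WNT receptors Fzd6 and Fzd3 fell and Ptk7 rose. The frizzled receptor Fzd6 had 5.34 and 6.32 CPM in NHD13 and 0, 0.0499, 0 and 0.0649 CPM in NHD13/MSI2, a ratio of 224 (95% counting interval 62.0 to 1851) (adjusted p = 0.000289). Fzd3 was at 8.78 and 3.75 against 0.310, 0.249, 1.22 and 0.195 CPM (adjusted p = 0.00972). Vangl1, a planar polarity protein, was at 9.38 and 83.8 against 0.362, 0.698, 0 and 0 CPM (adjusted p = 0.00550), and here NHD13 replicate 2 was the high library, without which the log2 fold change was −5.05 (adjusted p = 0.0379). The remaining 30 of 34 WNT genes were not called. In the Hedgehog and primary cilium list 4 of 31 genes were called lower and none was called higher, while 16 had a log2 fold change above 0 and the median was 0.02. Evc and Evc2 encode the pair of proteins that hold Smoothened signalling at the base of the cilium. Evc was at 8.23 and 4.54 CPM in NHD13 and had 1 count in 1 NHD13/MSI2 library, a ratio of 491 (95% counting interval 88.2 to 19404), and Evc2 was at 13.5 and 3.51 CPM and at 0 counts in all 4, at least 53.5-fold lower (adjusted p = 0.00224 and 0.00410). Cc2d2a, of the ciliary transition zone, was at 21.3 and 8.35 against 0.155, 0.0499, 0.860 and 1.23 CPM (adjusted p = 0.00807). The Hedgehog receptor and target Ptch1 was at 15.1 and 18.3 CPM in NHD13 and 14.4, 16.4, 19.6 and 17.7 CPM in NHD13/MSI2 (adjusted p = 0.965), with overlapping groups.

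Evc and Evc2 stand head to head, and their upstream sequences are printed because both genes fell together. The 250 bases before each start site, from RefSeq on GRCm38.p6 and 1096 bases apart, are given 5′ to 3′ on the strand of each gene, chr5:37336882-37337131 (minus) and chr5:37338228-37338477 (plus).
Evc: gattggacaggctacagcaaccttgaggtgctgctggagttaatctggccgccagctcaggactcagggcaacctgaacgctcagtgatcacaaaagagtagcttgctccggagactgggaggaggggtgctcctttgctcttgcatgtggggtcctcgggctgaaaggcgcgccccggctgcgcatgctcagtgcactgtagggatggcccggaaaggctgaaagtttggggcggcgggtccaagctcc
Evc2: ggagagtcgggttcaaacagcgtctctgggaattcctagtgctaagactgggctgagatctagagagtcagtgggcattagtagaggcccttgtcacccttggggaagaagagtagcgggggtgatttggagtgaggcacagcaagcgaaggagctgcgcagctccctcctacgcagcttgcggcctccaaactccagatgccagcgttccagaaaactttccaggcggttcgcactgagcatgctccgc
GC content was 60.8% and 57.2%. Neither holds a GATA-type AGATAA or a PU.1-type GAGGAAGT on either strand, which says only that these letters are absent here.

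Exchange factors and GTPase-activating proteins of small GTPases were called in 7 of 92 cases, all lower. Fgd5, an exchange factor for CDC42 that marks stem and endothelial cells, had 12.6 and 9.09 CPM in NHD13 and 0, 0.0499, 0.0905 and 0.130 CPM in NHD13/MSI2, a ratio of 167 (95% counting interval 71.5 to 514) (adjusted p = 0.000378). Dock1, an exchange factor for RAC, was at 73.6 and 30.9 against 0.207, 0.748, 0.814 and 0.584 CPM (log2 fold change −6.45 ± 0.48, adjusted p = 0.000289). Among ion channels and calcium handling 3 of 76 were called lower (3.95%, near the 2.58% of all genes). Casq2, the calcium buffer of cardiac muscle, had the largest fitted fall of the called genes with a mean of at least 50 counts, with all libraries in the fit. It was at 34.1 and 585 CPM in NHD13, 0.123, 0.0949 and 0.120 CPM in the controls and 0.155, 0.150, 0 and 0.195 CPM in NHD13/MSI2. Casq2 was thus high in the NHD13 libraries alone, with replicate 2 more than 10-fold above replicate 1, so that the size of its fall rests on that library. The ratio of NHD13 over NHD13/MSI2 was 2644 (95% counting interval 1393 to 5781). The fitted log2 fold change was −11.29 with replicate 2 (adjusted p = 0.000916) and −8.05 without it. Without replicate 2, Bex1 and Dmd had larger fitted falls than Casq2, at −11.26 and −10.17. The cation channel Trpc6 was at 122 and 11.5 CPM and 2.48, 0.748, 1.67 and 0.130 CPM (adjusted p = 0.00697).

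**Figure D3:**
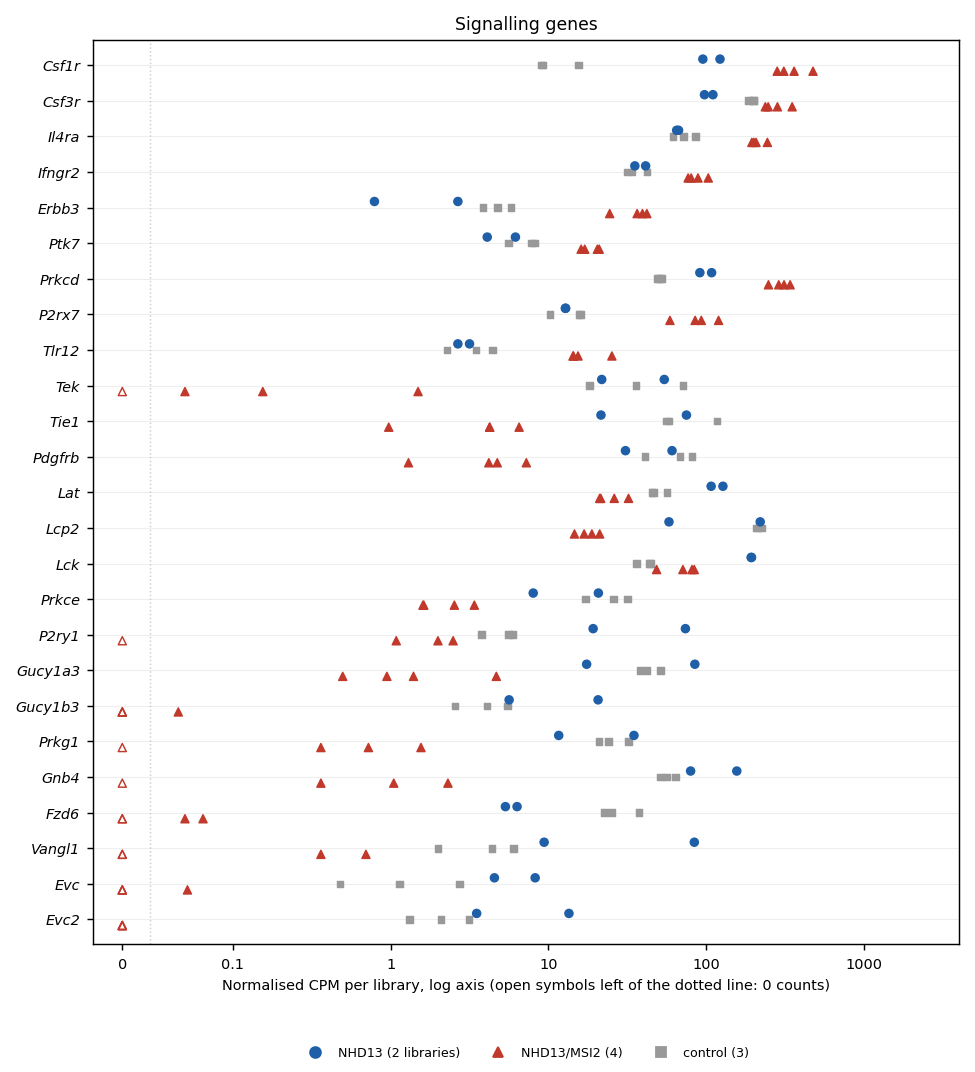
Normalised CPM of signalling genes in each library on a log axis, with 2 NHD13 circles, 4 NHD13/MSI2 triangles and 3 control squares, and open symbols at the left for 0 counts. The first 9 genes, from Csf1r to Tlr12, have all triangles to the right of both circles, and from Tek to Evc2 all triangles lie to the left. For Csf1r and Prkcd the control squares lie to the left of both groups.

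Surface antigens called higher included those known from myeloid and lymphoid cells. Itgam, the CD11b chain of the complement receptor integrin, was at 65.7 and 132 CPM in NHD13, 41.2 to 50.2 CPM in the controls and 424, 352, 477 and 408 CPM in NHD13/MSI2 (log2 fold change 2.07 ± 0.29, adjusted p = 0.00351). Its partner chain Itgb2 was at 153 and 92.8 against 74.2, 68.2, 76.4 and 89.4 CPM (log2 fold change −0.67 ± 0.26, adjusted p = 0.167). Cd5 and Cd6 are related scavenger-type receptors of T cells that lie close together. Cd6 was at 20.3 and 18.6 CPM in NHD13 and 103, 83.7, 106 and 138 CPM in NHD13/MSI2 (log2 fold change 2.46 ± 0.28, adjusted p = 0.00158), and Cd5 at 3.45 and 3.41 against 14.8, 14.2, 18.9 and 19.6 CPM (log2 fold change 2.30 ± 0.33, adjusted p = 0.00412). Alcam, the ligand of CD6, was at 12.8 and 11.4 against 2.17, 2.84, 4.98 and 7.59 CPM (adjusted p = 0.0626). Cd300lb, an activating receptor of myeloid cells, was at 95.4 and 151 against 298, 316, 301 and 369 CPM (adjusted p = 0.00960), and the tetraspanin Cd82 at 49.8 and 37.2 against 103, 96.8, 118 and 147 CPM (adjusted p = 0.00645). Fcer2a, which encodes the low-affinity IgE receptor CD23, was at 2.02 and 0.0988 CPM in NHD13, at most at 0.380 CPM in the controls and at 34.9, 29.0, 31.3 and 20.3 CPM in NHD13/MSI2 (log2 fold change 4.75 ± 0.85, adjusted p = 0.00972). Of the B-cell receptor, Cd79b was at 86.1 and 80.2 against 174, 147, 133 and 149 CPM (adjusted p = 0.00904). All 10 B-cell markers were tested and only Cd79b was called, and 4 of them were at 0 in at least 1 of the 6 libraries. Their summed level, 84.9 to 141 CPM in NHD13 and 278 to 471 CPM in NHD13/MSI2, was mostly Cd79a and Cd79b, and without these it was 4.15 to 18.3 CPM against 16.6 to 35.8 CPM, which overlapped. Their part in the gain of Fcer2a was not tested. Cfp, the properdin of the alternative complement pathway, went from 86.8 and 54.9 to 364, 275, 302 and 445 CPM (log2 fold change 2.29 ± 0.34, adjusted p = 0.00432).

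Antigens called lower included CD38, CD41 and CD59. Cd38, an enzyme that consumes NAD, was at 16.6 and 22.3 CPM in NHD13 and 0.879, 1.30, 0.543 and 1.56 CPM in NHD13/MSI2 (log2 fold change −4.19 ± 0.44, adjusted p = 0.00117). Cd59a, which blocks the membrane attack complex, was at 8.55 and 4.84 against 0.672, 0.399, 0.407 and 1.36 CPM (adjusted p = 0.00492). Itga2b, the CD41 chain of the fibrinogen receptor of platelets, was at 212 and 49.6 CPM and 9.10, 9.08, 18.4 and 4.48 CPM (log2 fold change −3.66 ± 0.61, adjusted p = 0.00734), and its partner Itgb3 at 45.7 and 17.1 against 3.52, 2.94, 1.99 and 0.519 CPM (log2 fold change −3.79 ± 0.70, adjusted p = 0.0109). Itgb6 had 3.13 and 2.52 CPM in NHD13 and 0 counts in all NHD13/MSI2 libraries, at least 17.8-fold lower, whereas its partner Itgav was at 18.1 and 16.8 against 15.5, 16.2, 10.3 and 19.7 CPM (adjusted p = 0.00396 and 0.772). Among 82 G-protein coupled receptors 6 were called lower and none higher. The largest of these falls was that of S1pr1, the receptor through which blood cells leave tissues along sphingosine-1-phosphate. S1pr1 was at 59.7 and 7.90 CPM in NHD13 and 0.0517, 0.748, 1.13 and 0 CPM in NHD13/MSI2 (log2 fold change −6.04 ± 1.00, adjusted p = 0.00699). Of 48 cadherins and protocadherins 4 were called lower, and 3 of these were variable exons of the Pcdhg cluster, whose shared exons make the single counts uncertain.

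Junction proteins had the lowest median of the surface lists. Of 38 tested, 6 were called lower and 1 higher, the median log2 fold change was −1.38, and 20 members had all NHD13/MSI2 libraries below both NHD13 libraries, as had 16.9% of all genes tested. Jam2, Jam3 and F11r encode junctional adhesion molecules B, C and A, and Esam a related molecule of endothelium and stem cells. Jam2 was at 39.0 and 11.4 CPM in NHD13 and 0, 0.648, 0.0452 and 0.389 CPM in NHD13/MSI2 (log2 fold change −6.54 ± 0.96, adjusted p = 0.00431), and Jam3, which binds it, at 31.0 and 10.7 against 0.465, 0.798, 0.724 and 0 CPM (log2 fold change −5.33 ± 0.85, adjusted p = 0.00616). F11r was at 104 and 27.3 against 6.47, 3.29, 5.02 and 7.66 CPM (adjusted p = 0.00284) and Esam at 77.7 and 26.3 against 3.21, 5.59, 7.38 and 8.24 CPM (adjusted p = 0.00491). In NHD13 replicate 1 each of these 4 genes was more than 2-fold above replicate 2, and no NHD13/MSI2 library reached either. The 1 junction gene that rose, Lsr, a component of tricellular contacts, went from 1.56 and 1.04 to 10.8, 11.7, 14.7 and 8.70 CPM (log2 fold change 3.13 ± 0.39, adjusted p = 0.00234). Among matrix genes, the basement membrane collagen Col4a1 went from 0.690 and 0.988 to 3.93, 10.4, 9.82 and 13.9 CPM and the metalloprotease Mmp11 from 27.9 and 17.8 to 144, 132, 124 and 58.9 CPM (adjusted p = 0.00550 and 0.00980), and 3 of 61 were called lower. Mmp16 was at 0 counts in all NHD13/MSI2 libraries, at least 24.8-fold lower.

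**Figure D4:**
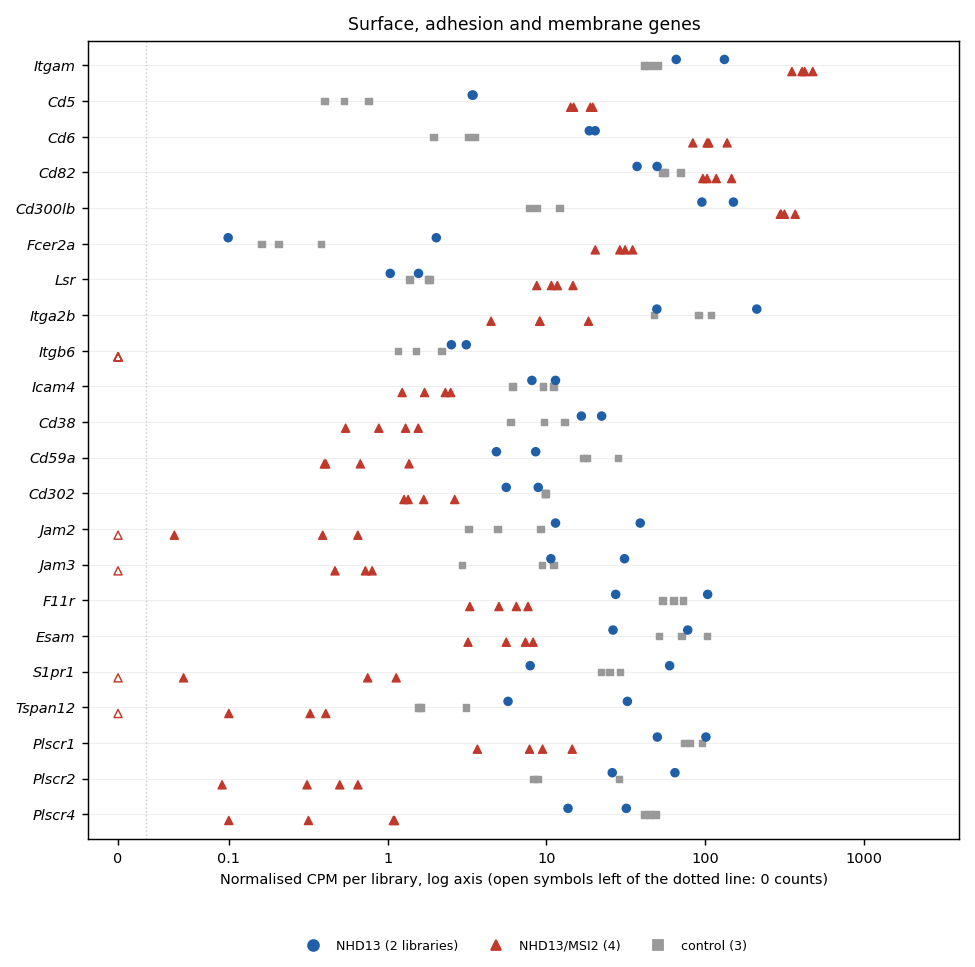
Normalised CPM of surface, adhesion and membrane genes in each library on a log axis, with 2 NHD13 circles, 4 NHD13/MSI2 triangles and 3 control squares, and open symbols at the left for 0 counts. From Itgam to Lsr the triangles lie to the right of the circles, and from Itga2b to Plscr4 to the left. For Cd300lb, Cd5 and Cd6 the control squares lie to the left of the circles.

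The listed transcription factor genes gave 1 call upwards and 17 downwards out of 602, a share of 2.99% beside 3.17% of all genes. Arid3a, a transcription factor gene outside the lists, was also called higher. Arid3a was at 17.02 and 11.9 CPM in NHD13 and 42.9, 48.4, 45.97 and 57.4 CPM in NHD13/MSI2 (adjusted p = 0.00384). Runx2, a RUNX family factor known from bone and plasmacytoid dendritic cells, was at 42.9 and 25.3 CPM in NHD13, 102 to 122 CPM in the controls and 77.6, 73.3, 81.1 and 80.4 CPM in NHD13/MSI2 (log2 fold change 1.20 ± 0.21, adjusted p = 0.00972). All NHD13/MSI2 libraries of Runx2 thus lay between the NHD13 and the control libraries, and Runx1 was at 143 and 164 against 190.0, 204, 174 and 127 CPM (adjusted p = 0.659). All 7 dendritic cell markers were tested and none was called, and 3 were at 0 in at least 1 of the 6 libraries. Their summed level was 43.2 to 148 CPM in NHD13 and 234 to 534 CPM in NHD13/MSI2, mostly Cd74 and H2-Ab1, and without these it was 3.17 to 7.36 CPM against 9.18 to 24.4 CPM. Their part in the gain of Runx2 was not tested.

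Of 35 homeobox genes outside the HOX clusters, 3 were called lower and none was called higher, and 19 had a log2 fold change above 0. Meis1, a partner of the HOX proteins (chromosome 11, 18879817 to 19018985, minus strand), was at 523 and 158 CPM in NHD13, 1015, 705 and 863 CPM in the controls and 6.41, 4.24, 4.16 and 11.7 CPM in NHD13/MSI2 (log2 fold change −5.69 ± 0.53, adjusted p = 0.000700). Hoxd13, the homeobox gene of the fusion, was at 0.782 and 0.741 CPM in NHD13 and 0.828, 0.648, 1.13 and 1.04 CPM in NHD13/MSI2 (adjusted p = 0.878) and at 0 counts in the controls. The bZIP factor Hlf was at 26.1 and 10.03 CPM in NHD13 and 0.155, 0.0499, 0.317 and 0.779 CPM in NHD13/MSI2 (log2 fold change −5.86 ± 0.60, adjusted p = 0.00108), beside 284 to 477 CPM in the controls, so that the controls were the highest of the 3 groups and NHD13/MSI2 the lowest. Prdm16, a histone methyltransferase family factor of stem cells, was at 44.4 and 44.8 against 0.207, 0.898, 3.17 and 0.325 CPM (adjusted p = 0.00383), and both of its NHD13 libraries were nearly equal. Mycn was at 132 and 60.02 CPM in NHD13, 24.8 to 41.1 CPM in the controls and 4.19, 5.04, 8.82 and 2.40 CPM in NHD13/MSI2 (log2 fold change −4.22 ± 0.47, adjusted p = 0.00132).

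Tal1, a basic helix-loop-helix factor of stem, erythroid and megakaryocytic cells, was at 13.6 and 7.80 CPM in NHD13 and 1.71, 0.997, 1.72 and 0.519 CPM in NHD13/MSI2 (log2 fold change −3.09 ± 0.43, adjusted p = 0.00367). Its relative Lyl1 was at 135 and 143 against 228, 233, 186 and 52.7 CPM (adjusted p = 0.743), with replicate 4 the low library of its group. Sox6 was at 109 and 38.7 against 2.43, 1.94, 1.81 and 0.519 CPM (log2 fold change −5.44 ± 0.56, adjusted p = 0.00107), the nuclear receptor Rora at 8.78 and 3.90 against 0.621, 1.35, 0.407 and 0.389 CPM (adjusted p = 0.00642), and Nkx2-3, a homeobox factor of spleen and gut vessels, at 4.19 and 1.09 against 0, 0, 0 and 0.0649 CPM (adjusted p = 0.00337). Of 324 zinc finger genes named Zfp, 6 were called lower (1.85%) and none higher, a share below that over all genes. Zfp521, a cofactor that holds back lineage commitment, was at 22.3 and 12.7 CPM in NHD13 and had 1 count in 1 of the 4 NHD13/MSI2 libraries, a ratio of 1348 (95% counting interval 242 to 53230.1) (adjusted p = 0.000201). Zfp462 was at 6.67 and 2.42 CPM and at 0 counts in all 4, at least 28.6-fold lower.

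**Figure D5:**
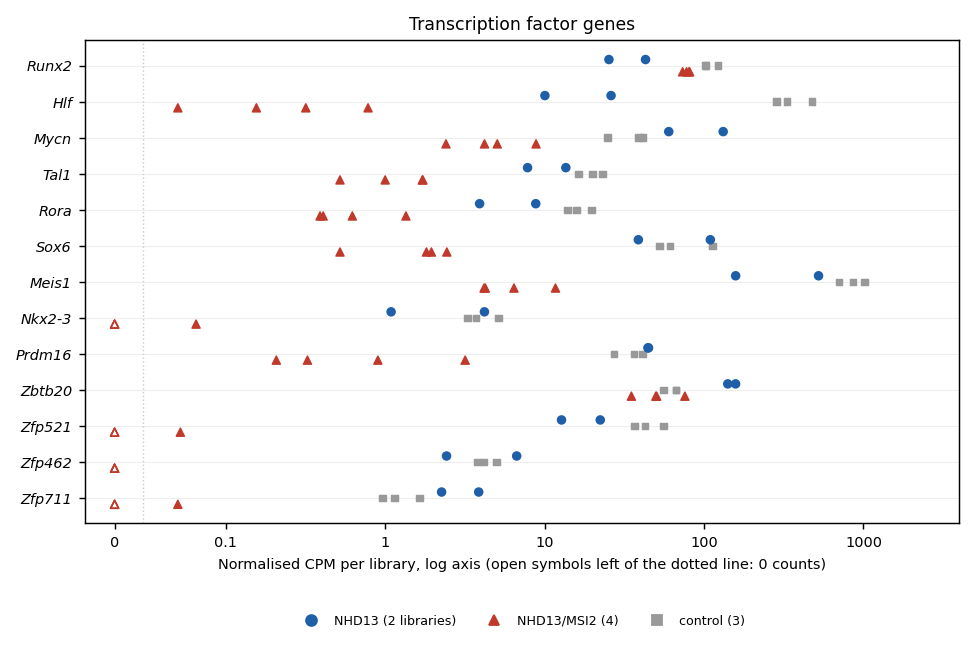
Normalised CPM of transcription factor genes in each library on a log axis, with 2 NHD13 circles, 4 NHD13/MSI2 triangles and 3 control squares, and open symbols at the left for 0 counts. Of the genes shown, Runx2 alone has its triangles to the right of the circles, and for Meis1, Sox6 and Zfp521 they lie more than 10-fold to the left.

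Promoter letters were compared as a description, for 10074 of the 13355 tested genes that matched a RefSeq window of 250 bases before to 50 after a start site, 62 of them called higher and 242 lower. A gene counts when any of its windows (1.27 per gene on average over all, 1.40 for the higher and 1.27 for the lower genes) holds the letters on either strand. The PU.1-type GAGGAAGT was found in 6 of 62 higher genes (9.68%), 14 of 242 lower genes (5.79%) and 3.88% of all matched genes. AGATAA, the GATA type, was found in 11.3%, 9.50% and 8.03%, and the E-box CAGCTG in 32.3%, 16.9% and 17.9%. Of all 12786 windows 3.23% held the first, 6.71% the second and 15.5% the third. The 3 searches do not overlap in their letters. Stretches of 60 bases are shown for 5 of the genes described above that hold a match before their start, 5′ to 3′ on the gene's strand, with the match in capitals: GAGGAAGT for Fbp1 (chr13:62888314-62888373, minus), Cd82 (chr2:93462042-93462101, minus, at the third of its 4 start sites) and Cd5 (chr19:10738994-10739053, minus), and AGATAA or its reverse TTATCT for Tal1 (chr4:115056194-115056253, plus) and Lcp2 (chr11:34046779-34046838, plus).
Fbp1: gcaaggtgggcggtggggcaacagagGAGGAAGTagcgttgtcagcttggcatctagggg
Cd82: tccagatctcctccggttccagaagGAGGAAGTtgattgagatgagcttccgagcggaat
Cd5: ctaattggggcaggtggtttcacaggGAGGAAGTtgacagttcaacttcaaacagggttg
Tal1: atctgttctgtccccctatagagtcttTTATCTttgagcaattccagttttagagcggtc
Lcp2: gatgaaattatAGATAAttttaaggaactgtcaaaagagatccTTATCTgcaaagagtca
These are examples, with GAGGAAGT shown only for genes called higher and AGATAA only for genes called lower. By count, GAGGAAGT was also found in 14 of 242 lower genes. AGATAA was found in 7 of 62 higher genes (11.3%) and 23 of 242 lower genes (9.50%). The examples are thus no measure of where the letters occur. A match marks letters and is no evidence that a factor binds there.

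Called genes that are neighbours on the chromosome were listed after their values were seen. Of 12722 pairs of adjacent tested genes with a position in GENCODE M21 on GRCm38, 31 had both genes called, 26 with both lower, 2 with both higher and 3 with opposite calls. The longest run was on chromosome 9, 92249750 to 92608428, where Plscr1, Plscr2, Plscr4 and Plod2 followed each other and all fell. The Plscr genes encode phospholipid scramblases, which move lipids between the leaflets of membranes. Plscr1 was at 101 and 49.99 CPM in NHD13 and 3.67, 7.83, 9.46 and 14.5 CPM in NHD13/MSI2, Plscr2 at 64.5 and 26.0 against 0.310, 0.499, 0.0905 and 0.649 CPM, and Plscr4 at 31.9 and 13.7 against 1.09, 0.0997, 0.317 and 1.10 CPM (log2 fold change −3.09, −6.90 and −5.16, with adjusted p of 0.00379, 0.00117 and 0.00200). Plscr3, which lies on another chromosome, was at 139.6 and 169 against 207, 194, 225 and 144 CPM (adjusted p = 0.435). Plod2, a collagen lysyl hydroxylase, had 10.6 and 3.06 CPM in NHD13 and 0 counts in NHD13/MSI2, at least 43.1-fold lower. Tal1 and Pdzk1ip1, both lower, lie 16952 bases apart on chromosome 4. Pdzk1ip1 was at 64.4 and 23.0 against 2.9998, 5.93, 6.02 and 4.09 CPM (adjusted p = 0.00237). On chromosome 18 the calls alternated: Camk2a was higher at 51.6, 32.2, 27.1 and 37.0 CPM against 12.1 and 13.8 CPM (adjusted p = 0.00926), the next gene, Pdgfrb, was lower and the one after it, Csf1r, higher. Pdgfrb and Csf1r, related receptor tyrosine kinases 15536 bases apart, thus changed in opposite directions in every NHD13/MSI2 library.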

How the data were processed

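RNA from sorted LSK cells was extracted with Trizol, treated with DNase on columns and sequenced with a standard Illumina preparation. The authors deposited 1 table of whole-number counts per gene symbol, with 1 column per library and no normalisation. The submitters' processing notes name STAR, HTSeq, DESeq and mm9 without versions, and whether counting used strand is not given in the sources used here. In the table as deposited, the names that follow the March genes (49.6% of the named rows) sit 2 rows too high. They were moved down by 2, since 72 of 80 ribosomal protein genes then had a median of at least 1000 counts, against 60 as deposited and at most 67 for other moves. The 13 rows among the March genes were left out, which left 24060 named rows.

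Groups were taken from the sample labels. Genes were kept by filterByExpr, scaled by TMM (factors 0.785 to 1.09) and modelled in edgeR 4.0.16 (quasi-likelihood F test, R 4.3.3) with all 9 libraries and no covariate, which shares 1 estimate of spread over the 3 groups (prior degrees of freedom 3.38). Tests were two-sided with Benjamini-Hochberg adjustment over all 13355 genes, and errors are standard errors of the log2 fold change with 4 NHD13/MSI2 and 2 NHD13 libraries. Whether libraries came from separate mice is not stated, so that p-values measure the spread between libraries, which may be technical. Fitted folds of genes with 3 or fewer counts in every library of a group depend on a prior count, and for these a bound against 3 counts per library, or a ratio with an exact 95% interval, is given, which cover counting error only. Bounds and ratios use the mean of the other group, so where its libraries differ widely a single library can set their size. Alternatives were DESeq2 1.42.0, RLE factors, other filters and thresholds, a robust fit, a replicate block, fewer libraries, and fewer genes. The fit was also run on simulated counts, and the outcome is not reported here.

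The comparison and the gene lists were chosen with earlier results of these data known. The genes named are up to 3 called members each way of each list, the 8 largest changes each way where groups did not overlap and the mean reached 50 counts, the label checks, and partners or paralogues of these. A few genes that this rule names are not reported here. Gucy1a3, Gucy1b3 as its partner, Prkg1, Pde5a, Prkaa2, Cpt1c, Arsg, Ifi203, Arid3a, the neighbouring genes and the genes of the closing section were chosen after their values were seen. Positions were looked up by symbol in GENCODE M21 (GRCm38), with a match for 95.6% of tested genes, and promoter sequences are from RefSeq on GRCm38.p6. They need not be the build used for the counts.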

Additional observations from a re-analysis of the deposited data

Results flagged for a closer look

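Within the 4 NHD13/MSI2 libraries, 148 of the genes given with values were searched for a single library set apart from the other 3. It was defined by a gap to the nearest library that, divided by the range of the 4, passed Dixon's 95% critical value. For normally distributed values chance gives about 1 in 20 such cases. There were 16 in the 148 genes, of which 5 were set by replicate 4. A single count against 0 in the other libraries passes by construction, so the 16 cannot be compared with that rate. Msi2 was at 241 CPM in replicate 4 and at 77.1 to 88.0 CPM in the other libraries of its group. St8sia4 was at 422 CPM in replicate 4 against 588 to 597 CPM, Tek at 1.49 CPM there against 0 to 0.155 CPM, Uty at 130.1 CPM against 102 to 106 CPM, and Nkx2-3 at 0.0649 CPM, a single count, against 0. In replicate 3, Bdh2 was at 4.93 CPM against 1.23 to 1.70 CPM, Ddx3y at 17.6 CPM against 3.83 to 5.98 CPM, Fzd3 at 1.22 CPM against 0.195 to 0.310 CPM, Slamf1 at 1.86 CPM against 0.0499 to 0.155 CPM and Tlr12 at 25.2 CPM against 14.3 to 15.4 CPM. For Gpx8 and Gucy1b3 a single count in replicate 3 (0.0452 CPM), and for Dmd, Evc and Zfp521 a single count in replicate 1 (0.0517 CPM), stood against 0 counts in the others. Eif2s3y was at 180.4 CPM in replicate 2 against 176.9 to 177 CPM.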

How the results depend on the processing

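All 423 called genes kept their direction in every alternative in which they were fitted, but the number past the threshold depended on the setting and on single libraries. At an adjusted p of 0.05, 1177 genes passed, 299 higher and 878 lower. DESeq2 called 1286, 397 higher and 889 lower (69.1% of calls lower beside 81.6%), the 423 among them. Without the controls in the fit 30 were called, 4 higher and 26 lower, and in the added fit of the groups without NHD13/MSI2 replicate 4, chosen after seeing the data, 90, of which 42 were higher and 48 lower (53.3% lower). The rows above the March genes alone, whose names were not moved, gave 216, 47 higher and 169 lower, from fewer genes tested. Leaving out single libraries gave 128 (NHD13 replicate 1) to 646 calls (NHD13/MSI2 replicate 4), 29 (NHD13/MSI2 replicate 2) to 211 higher and 94 to 435 lower. The total also moved by more than 1.5 times without NHD13/MSI2 replicate 1 (179) or replicate 2 (182) or replicate 3 (221), and without control replicate 1 (153) or replicate 2 (156) or replicate 3 (167). Without NHD13 replicate 2 it was 404, 91.8% of them lower, and without NHD13/MSI2 replicate 4 the share was 67.3%. The cause of these shifts was not tested. Other filters, RLE factors, a robust fit and leaving out X and Y gave 363 to 514 calls.

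Whether replicate numbers pair the samples cannot be settled from the counts. NHD13 and NHD13/MSI2 libraries of the same number had deviations correlated at −0.0716 and −0.0075. For control and NHD13 libraries of the same number it was 0.194 and 0.132, and for control and NHD13/MSI2 −0.0612, 0.0611 and −0.0489. With 2 NHD13 libraries their deviations mirror each other, so these values are no test of pairing. With a replicate block 203 genes were called, 54 higher and 149 lower, and of the 423 genes 163 stayed under 0.01 and 415 under 0.05.

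Of genes named with values, those that changed sign were all uncalled. Leaving out single libraries, the log2 fold changes ranged from −0.47 to 1.14 (Angpt1), from −2.79 to 1.75 (Cybb), from −0.0721 to 0.54 (Idh2), from −0.72 to 0.0537 (Kit), from −0.58 to 0.18 (Msi2), from −0.11 to 1.34 (Plcg1), from −0.44 to 0.23 (Prkaa1), from −0.0761 to 0.21 (Ptch1), from −0.0677 to 1.55 (Tbxas1). With the replicate block Hoxd13 was at −0.0387, Kdm5d at 0.335 and Uty at 0.325. Genes near 0 counts in a group carry no precise fold at this depth.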

Other observations

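All genes in this section were chosen after their values were seen, apart from the 6 of the next sentences, which complete the largest changes with a mean of at least 50 counts. Gm13710 rose from 0.598 and 0.247 to 8.53, 8.38, 8.19 and 7.98 CPM and Bfsp2, a lens filament protein, from 1.06 and 1.48 to 18.9, 10.1, 9.999 and 17.6 CPM (adjusted p = 0.00623 and 0.00234). Nav3, a microtubule-binding guidance protein, had 2.76 and 23.8 CPM in NHD13 and 0 counts in NHD13/MSI2 (adjusted p = 0.00674). It was at least 83.7-fold lower by the NHD13 mean, most of which came from replicate 2. Dmd, which encodes dystrophin, had 22.3 and 17.6 CPM and a single count, a ratio of 1532 (95% counting interval 275 to 60512) (adjusted p = 0.000228). Bex1 (14.8 and 2.17 CPM in NHD13) and Lancl3 (8.37 and 6.32 CPM) also had 0 counts in all 4 NHD13/MSI2 libraries. By the NHD13 mean they were at least 53.3-fold and 46.3-fold lower (adjusted p = 0.00604 and 0.00157), and for Bex1 most of that mean came from replicate 1. Bex1, Lancl3 and Dmd are X-linked. Of 453 tested genes on X, 38 were called (8.39%), beside 1.97% to 4.56% on single autosomes. Next to Bex1, its relatives Bex4 (13.2 and 3.80 against 0, 0, 0.362 and 0.130 CPM) and Tceal8 (46.0 and 15.2 against 0.621, 0.199, 0.995 and 0.454 CPM) were also lower (adjusted p = 0.00604 and 0.000698).

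One Y-linked gene stood apart from its neighbours. Ddx3y, an RNA helicase of the Y chromosome, was at 172 and 249.8 CPM in NHD13, 3.83, 5.98, 17.6 and 5.52 CPM in NHD13/MSI2 and 0.0409, 229 and 0.0400 CPM in the controls, of which replicates 1 and 3 were also at most at 1.31 CPM for Uty. Uty was at 129 and 144 against 102, 106, 104 and 130.1 CPM, Kdm5d at 63.9 and 59.4 against 55.1, 46.4, 48.2 and 70.2 CPM, and Eif2s3y at 122 and 143 against 177, 180.4, 177 and 177 CPM. Ddx3x, the X-linked paralogue of Ddx3y, was at 151 and 151 CPM in NHD13 and 189.9, 175, 174 and 238 CPM in NHD13/MSI2 (adjusted p = 0.243). For Ddx3y the adjusted p was 0.191 with the controls in the fit and 0.0162 without them. In the controls Ddx3x was at 149, 159 and 141 CPM, and replicates 1 and 3 had 1 count of Ddx3y each. How reads were divided between the paralogues was not tested.

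The remaining marker lists had no called member. Neutrophil markers summed to 139.8 to 527 CPM in NHD13 and 232 to 663 CPM in NHD13/MSI2 and erythroid markers to 3.61 to 16.3 and 0.648 to 8.33 CPM, with Hbb-b1 and Hba-a1 at 0 in all 6 libraries. Mast cell and basophil markers summed to 8.51 to 16.65 and 4.22 to 9.95 CPM, with Fcer1a at 0.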
